A study of Mus musculus with 21 samples.

Results

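The 10 genes described here mark the endothelial cells that line brain vessels and the blood-brain barrier that these cells form: Cldn5, Slco1a4, Car4, Ly6c1, Ly6a, Tie1, Kdr, Flt1, Pecam1 and Icam2. They were taken by symbol, and all 10 were found among the 24322 gene symbols listed in each of the 21 libraries. The libraries came from cells sorted for EGFP fluorescence from C57BL/6 Nestin-EGFP mice, so every group carried the same reporter and the sort was aimed at neural stem and progenitor cells, not at vessels. The promoter fragment behind the reporter was not given in the sources used here. Pregnant dams were dosed by mouth on embryonic days 12, 13 and 14, with 300 mg/kg/day of valproic acid (VPA) or with methylcellulose, the vehicle of the control groups. The groups were VPA and control forebrain at embryonic day 15 (E15), VPA and control dentate gyrus at postnatal day 5 (P5), and VPA with voluntary running (VPA+Run), VPA and control dentate gyrus at 12 weeks. Each of the 7 groups had 3 libraries, and no group ran without VPA. The labels do not say whether the replicates were separate litters, so p-values measure the spread between these libraries, which may be technical.

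Brain endothelial cells differ from those of other organs in sealing their contacts with tight junctions, in carrying few vesicles and in holding transporters that select what enters the brain. Claudin 5, the product of Cldn5, is the main strand protein of these junctions. Neural progenitors and astrocytes supply Wnt and VEGF ligands to the vessels, and pericytes on the vessel wall help to keep the barrier closed. Nestin is best known from neural progenitors, and it has also been described in pericytes and in newly forming endothelium.

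The genes lie at separate places in the genome (GRCm38 with GENCODE vM21), and no annotated gene overlaps any of them. Cldn5 lies at chr16:18776847-18778262 on the plus strand. Ly6a, at chr15:74994877-74998031, and Ly6c1, at chr15:75044018-75048830, are neighbours on the minus strand, 45986 bases apart. Icam2 and Pecam1 share the minus strand of chromosome 11, 266141 bases apart. Ly6c1 has a near-identical copy, Ly6c2. Their longest coding transcripts were 97.6% identical over 822 aligned positions, so reads of Ly6c1 and Ly6c2 may have been split between them, and the Ly6c1 values are uncertain in that respect.

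RefSeq promoter windows (GRCm38.p6), which run 250 bases before to 50 after the start site, were held for 7 of the 10 genes and gave 8 windows, since Ly6c1 had 2. They are shown to let the promoters be compared, and a link between them and the levels in these libraries was not tested. They were searched on both strands for AGGAAG and CGGAAG, forms of the core word bound by ETS family factors, which are known as regulators of endothelial genes. One or the other word was in 5 of the 8 windows, against 46.5% of the 32851 mouse windows of the same length. The 4 windows below belong to the tight junction gene Cldn5 (chr16:18776597-18776896, plus strand), the surface marker Ly6c1 (its upstream window, chr15:75048788-75049087, minus strand), the VEGF receptor Flt1 (chr5:147725962-147726261, minus strand) and the angiopoietin co-receptor Tie1 (chr4:118489800-118490099, minus strand). Each is written 5′ to 3′ on the gene's strand, with either word, read on either strand, in capitals.
Cldn5: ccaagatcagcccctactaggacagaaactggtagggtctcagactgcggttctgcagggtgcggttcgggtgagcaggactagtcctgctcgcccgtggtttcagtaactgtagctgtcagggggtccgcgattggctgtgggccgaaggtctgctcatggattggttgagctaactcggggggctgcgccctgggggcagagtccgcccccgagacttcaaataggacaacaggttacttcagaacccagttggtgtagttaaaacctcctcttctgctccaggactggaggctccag
Ly6c1: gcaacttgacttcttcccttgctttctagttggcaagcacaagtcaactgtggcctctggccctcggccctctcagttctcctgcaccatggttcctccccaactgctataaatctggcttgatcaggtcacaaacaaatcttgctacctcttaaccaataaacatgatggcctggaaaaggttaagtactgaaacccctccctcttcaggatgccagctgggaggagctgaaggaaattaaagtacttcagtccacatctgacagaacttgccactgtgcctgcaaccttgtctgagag
Flt1: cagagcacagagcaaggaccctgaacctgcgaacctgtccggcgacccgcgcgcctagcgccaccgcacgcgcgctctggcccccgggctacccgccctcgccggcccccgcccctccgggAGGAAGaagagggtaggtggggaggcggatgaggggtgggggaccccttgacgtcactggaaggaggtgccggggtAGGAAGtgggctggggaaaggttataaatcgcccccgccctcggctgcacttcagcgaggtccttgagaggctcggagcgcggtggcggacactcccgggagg
Tie1: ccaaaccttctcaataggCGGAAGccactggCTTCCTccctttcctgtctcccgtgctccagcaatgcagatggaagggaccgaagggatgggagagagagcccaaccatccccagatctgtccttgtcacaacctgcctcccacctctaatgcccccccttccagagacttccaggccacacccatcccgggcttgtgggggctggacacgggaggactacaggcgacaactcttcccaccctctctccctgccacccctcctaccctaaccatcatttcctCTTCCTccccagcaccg
Neither word is in the Cldn5 window or in this Ly6c1 window, Flt1 has AGGAAG at 2 places, and Tie1 has AGGAAG at 2 places and CGGAAG at 1. The other Ly6c1 window, not shown, has 3 matches of AGGAAG. The windows also differ in base makeup. Flt1 has 29 CpG dinucleotides and 70.7% GC, whereas the Ly6c1 window shown has 1 CpG and 49.0% GC. The medians over all windows were 7.0 CpG and 52.7% GC. A word match is a description of these letters only.

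A neural progenitor gene was read first, which is no check of the sort, since the series held no unsorted library. Nes, the gene whose product is nestin, was at 7.86 to 20.1 FPKM (fragments scaled to transcript length and library size, a level per length) in all 21 libraries. Libraries were not alike in other transcripts. VPA E15 replicate 3 held choroid plexus transcripts, with Ttr, the transthyretin of that epithelium, at 9662 FPKM and a summed level of 8 choroid plexus genes of 11250 FPKM, against 14.1 to 157.7 FPKM in the other E15 libraries. Control 12-week replicate 1 had the highest sum of 15 microglia and macrophage genes, 455.6 FPKM. VPA+Run replicate 3 had the fewest genes above 0, 12019. Of 6493 genes at 10 FPKM or more in all 12 younger libraries, 13 to 133 per library were listed at 0 at 12 weeks, with the highest number in VPA+Run replicate 3, so a 0 at that age can be a failed estimate.

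The endothelial genes were nearly silent in sorted forebrain cells at E15, low at P5 and far higher at 12 weeks, when control means were 32.4 to 132 FPKM for 5 of them. Of 60 values at E15, 56 were below 1 FPKM and 14 were listed at 0. At P5, 46 of 60 values were below 1 FPKM. At 12 weeks 9 of 90 values were below 1 FPKM and 7 were listed at 0. For 7 genes every 12-week library lay above all 12 younger libraries. The exceptions were Tie1, Kdr and Icam2, for which 7, 8 and 4 of the 9 libraries did.

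**Figure D1:**
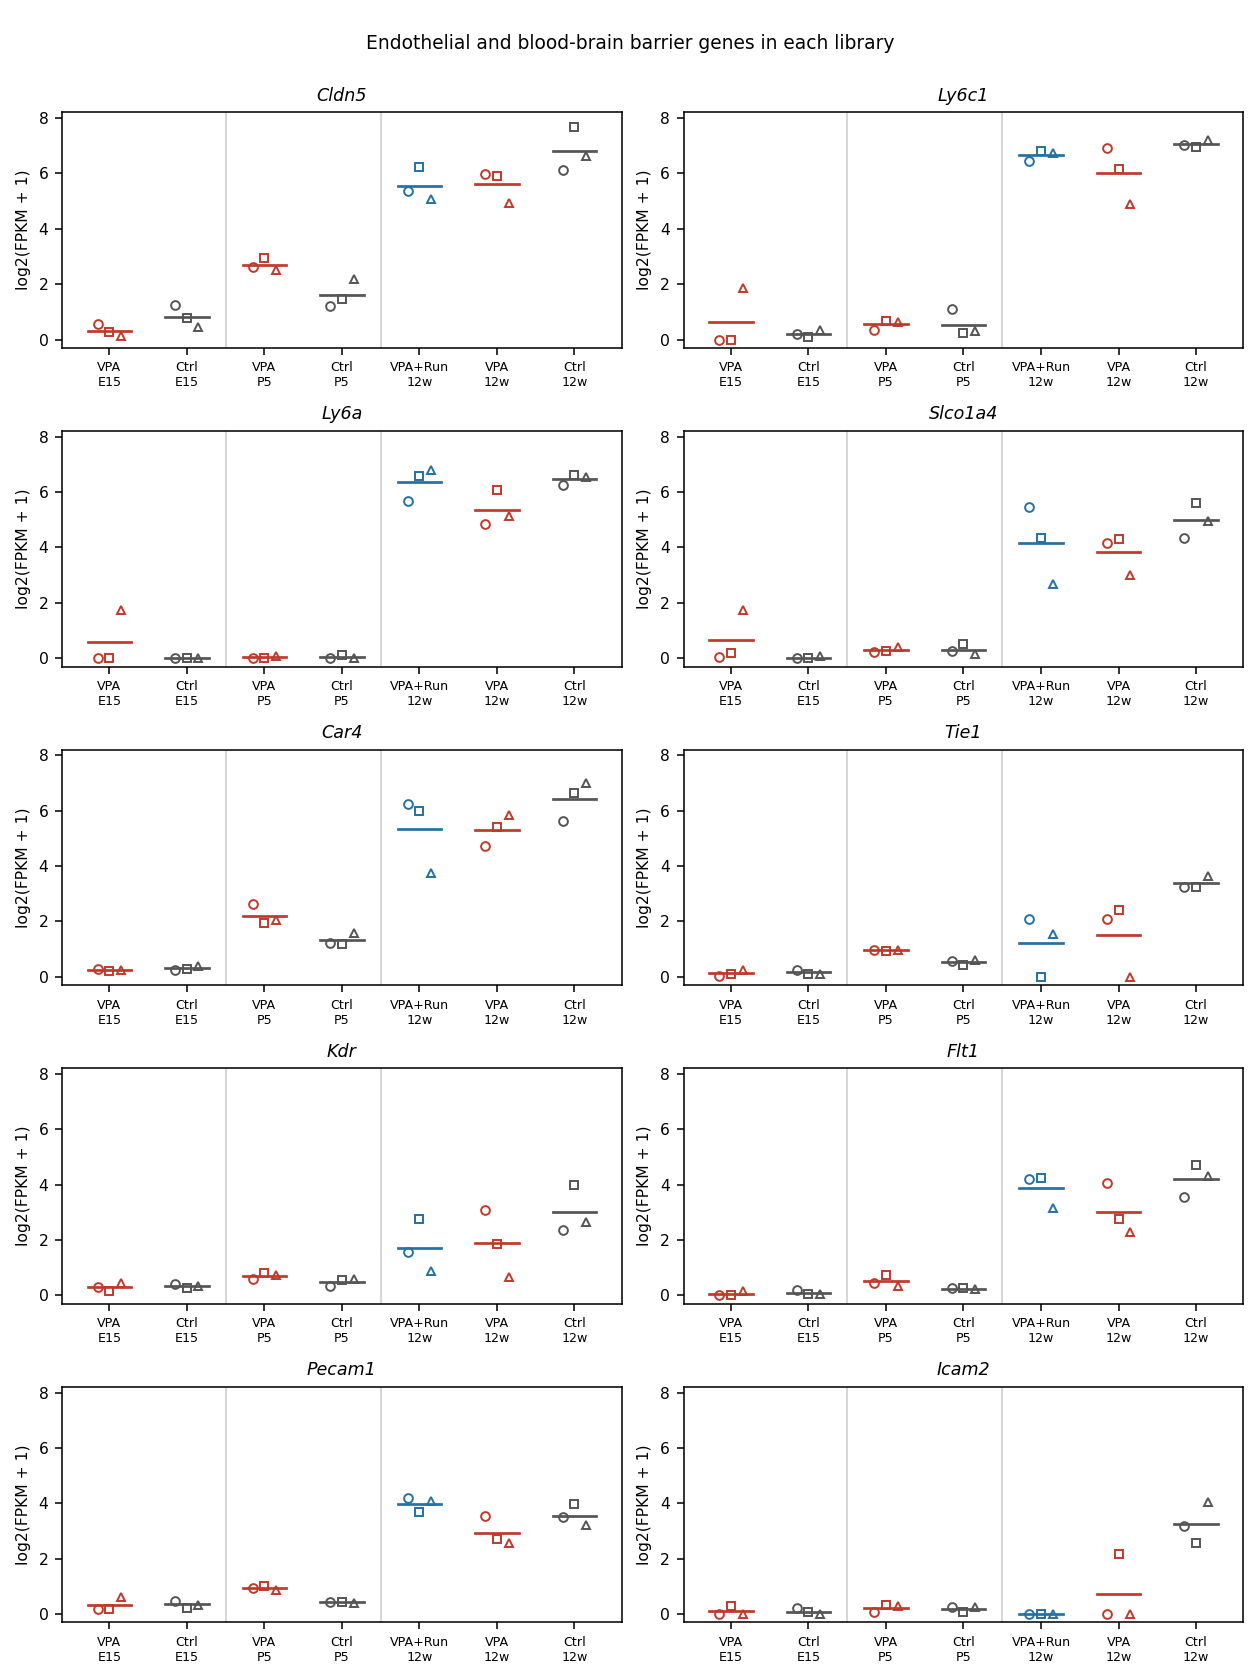
Level of each of the 10 genes in each of the 21 libraries as log2(FPKM + 1). Circles, squares and triangles are replicates 1, 2 and 3, bars are group means, red is VPA, blue VPA+Run and grey control (Ctrl). The 9 libraries at 12 weeks stand above the 12 younger ones for 7 of the genes, and VPA libraries lie below control libraries at 12 weeks without overlap for Cldn5, Ly6c1, Ly6a, Slco1a4, Tie1 and Icam2.

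Among the tight junction, transport and surface enzyme genes, Cldn5 was at 1.38, 0.724 and 0.357 FPKM in the 3 control libraries at E15, at 1.34, 1.79 and 3.50 FPKM in those at P5, and at 68.1, 205 and 97.4 FPKM in those at 12 weeks. The E15 and P5 control libraries of Cldn5 overlap slightly, and those at 12 weeks stand far above both. Slco1a4 is an organic anion transporter of brain capillary endothelium. Its control libraries were at 0, 0 and 0.0499 FPKM at E15, at 0.189, 0.410 and 0.125 FPKM at P5, and at 19.5, 47.5 and 30.3 FPKM at 12 weeks. Car4 is a membrane-anchored carbonic anhydrase of the capillary surface. Its control libraries were at 0.186, 0.218 and 0.296 FPKM at E15, at 1.33, 1.30 and 1.98 FPKM at P5, and at 48.9, 98.2 and 127 FPKM at 12 weeks. The 3 ages of Car4 do not overlap.

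The surface antigens Ly6c1 and Ly6a, small lipid-anchored proteins of mouse endothelium that also mark blood cell lineages, had the steepest difference between the ages. Ly6c1 was at 1.12, 0.176 and 0.232 FPKM in control P5 libraries and at 128, 121 and 146 FPKM in control 12-week libraries. Ly6a was listed at 0 in all 3 control libraries at E15, at 0, 0.0757 and 0 FPKM in those at P5, and at 74.5, 97.5 and 91.7 FPKM in those at 12 weeks. Of 7 platelet, lymphocyte and other blood genes none reached the minimum level for testing at 12 weeks. The sum of 10 erythroid genes was 1436, 0 and 291 FPKM in the 12-week control libraries, and its part in the Ly6 values was not tested.

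Receptors and adhesion genes reached lower levels per length. Flt1, a VEGF receptor that binds its ligand tightly and can act as a decoy, averaged 18.4 ± 7.36 FPKM in 12-week controls, and Kdr, the main signalling receptor for VEGF, averaged 8.08 ± 5.78 FPKM (SD, n = 3 each). Tie1, an endothelial tyrosine kinase receptor that works with Tek in angiopoietin signalling, was at 8.44, 8.43 and 11.4 FPKM in the 12-week controls. Pecam1, an adhesion molecule of endothelial cell contacts, was at 10.2, 14.8 and 8.23 FPKM there, and Icam2, an endothelial ligand of leukocyte integrins, at 8.18, 4.86 and 15.5 FPKM. In control P5 libraries all 5 of these genes were below 1 FPKM.

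Between dentate gyrus at 12 weeks and at P5, all 10 genes rose in control libraries, by limma at an adjusted p under 0.05, where 7.26% of 14662 genes tested rose. The log2 fold change of FPKM + 1 ran from 2.50 for Kdr (SE 0.52, adjusted p = 0.00373) to 6.51 for Ly6c1 (SE 0.46, adjusted p = 7.14e-08). Cldn5 rose by 5.18 (SE 0.40, adjusted p = 1.89e-07), and the median of the 10 genes was 4.31, against -0.04 over all genes tested. In this fit of all 21 libraries 8 of the 10 passed the minimum of 1 FPKM in 3 libraries only through the 12-week libraries, and without that minimum all 10 also rose. The age difference coincides with other differences: 12-week tables had another header format, fewer genes above 0 (12019 to 15210, against 17251 to 17601 at P5) and more genes listed at 0, and age and these differences cannot be told apart. In bulk samples fewer cells of a type and less RNA per cell also cannot be told apart, here and in each comparison that follows.

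Other genes of vessel biology were counted in the same comparison. Some genes of these lists did not reach the minimum in a fit of the P5 libraries alone. They may have been tested here only through the 12-week libraries, where they were high. For such genes a rise was favoured in advance, so the counts are descriptions. Of 31 other endothelial genes tested 20 rose, among them Emcn, a sialomucin of capillaries and veins (4.14, SE 0.39, adjusted p = 1.77e-06), Adgrl4, an adhesion receptor of endothelium (3.29, adjusted p = 3.20e-07), and Itm2a (3.88, adjusted p = 5.07e-06). Of 30 barrier and transport genes 13 rose, with Slc22a8, an organic anion carrier, at 3.71 (adjusted p = 2.14e-06), Pglyrp1, a peptidoglycan recognition protein, at 3.88 (adjusted p = 7e-06) and the glucose carrier Slc2a1 at 2.41 (adjusted p = 1.59e-05), all as log2 fold changes. All 16 pericyte and mural genes rose, led by Vtn (5.71, adjusted p = 3.74e-09), Cspg4 (2.64) and Abcc9 (2.89). Of the 19 VEGF, angiopoietin and Notch pathway genes 5 rose, with Sema3e, Angpt2 and Flt4 of smallest p, while Nrp2 and Angpt1 fell. Of 19 Wnt barrier genes 4 rose, among them Foxf2, Fzd6 and the ligand Wnt7b, and Adgra2, a Wnt7 co-receptor, fell. Among neural progenitor genes 2 of 13 fell, Fabp7 by 2.18 and Vim by 0.87 on the log2 scale, and none rose. Genes of other cell types differed too: 7 of 11 fibroblast and meningeal genes rose (Foxc1, Pdgfra and Fn1 of smallest p), 3 of 6 erythroid genes fell (Alas2, Hbb-bs and Hba-a2), and none of 8 choroid plexus genes or of the 1 platelet and lymphocyte gene tested was called. The sum of the microglia and macrophage genes was 66.8 to 456 FPKM in 12-week controls and 37.6 to 45.9 FPKM in P5 controls, without overlap. The part of these cell types in the endothelial values was not tested.

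The members' levels were read against pericyte genes as well. The sum of the 10 genes was 21.3 to 31.1 FPKM per 100 FPKM of the 16 pericyte genes in control 12-week libraries and 3.44 to 5.05 in control P5 libraries. The ratio thus differed between the ages without overlap, while both sums were higher at 12 weeks.

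**Figure D2:**
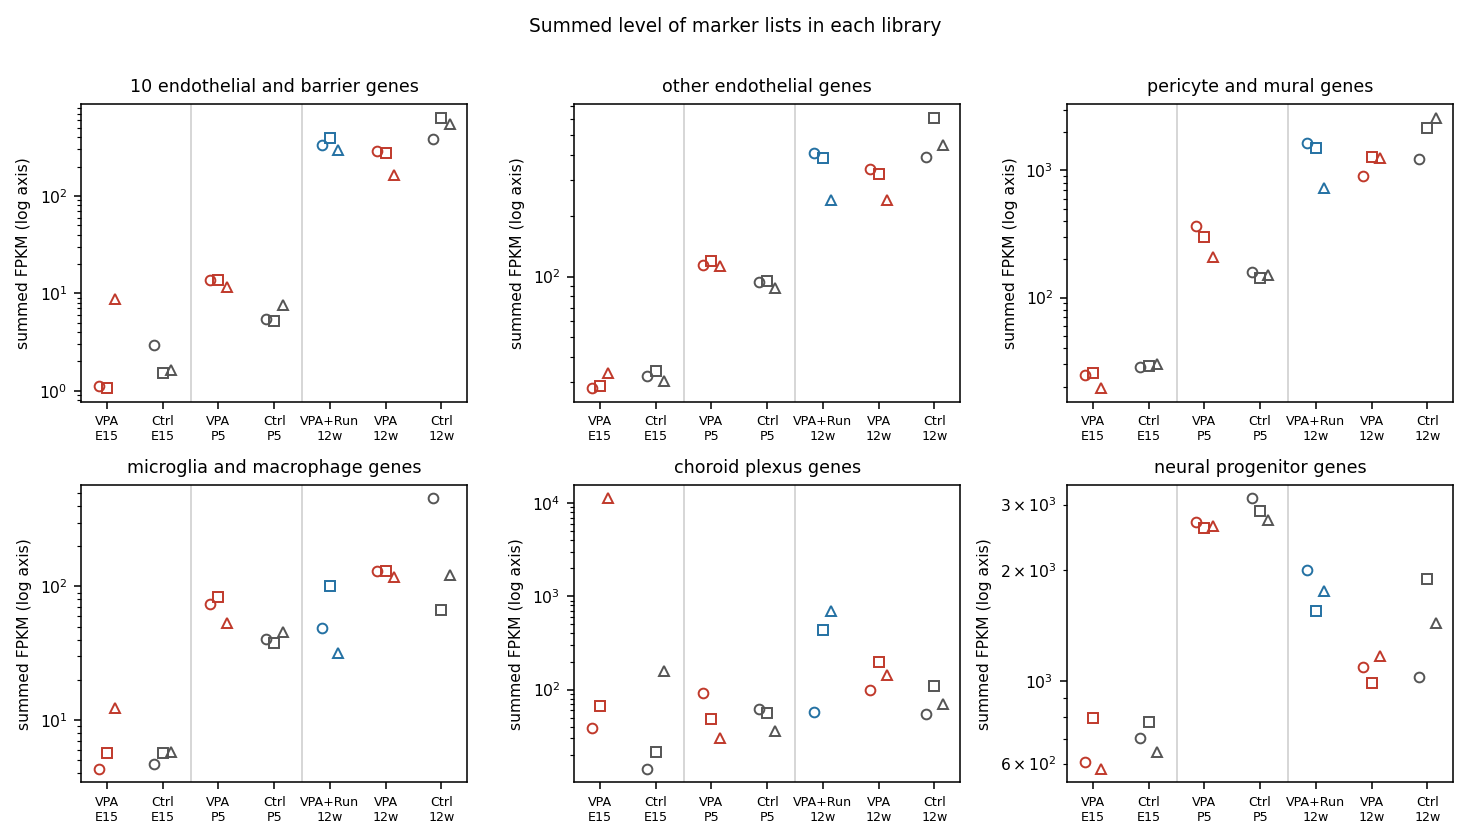
Summed FPKM per library (log axis) of the 10 genes and of 5 marker lists, for VPA (red), VPA+Run (blue) and control (grey), with circles, squares and triangles for replicates 1, 2 and 3. The sum of the 10 genes was 165.7 to 637.6 FPKM at 12 weeks. VPA E15 replicate 3 stands apart in choroid plexus genes, at 11250 FPKM.

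Between control forebrain at E15 and control dentate gyrus at P5 age and region differ together. No endothelial gene of the 10 was called at P5 against E15 (limma, adjusted p from 0.171 for Car4 to 0.978 for Ly6a), where 20.7% of genes were called in either direction, and none had an unadjusted p under 0.05. All 10 log2 fold changes were above 0, as were 62.4% over all genes, with a median of 0.22 against 0.14. For 4 of the 10 the groups did not overlap, which is below the 44.3% of genes that lay higher without overlap. Cldn5 differed by 0.80 (SE 0.40) and Car4 by 1.03 (SE 0.50). The other 8 genes reached the minimum only through the 12-week libraries. In a fit of only these 2 groups Cldn5 and Car4 alone reached it and both were called, as were 8033 of 13189 genes. The other 8 of the 10 were not tested in that fit. With array quality weights in the fit of all libraries Cldn5, Car4 and Tie1 were called, as were 10238 of 14662 genes. Of the pericyte genes 7 of 16 rose, Cspg4 (2.80), Rgs5 (2.99) and Vtn (2.25) of smallest p. Of 30 barrier and transport genes 10 rose, led by the caveolins Cav2 and Cav1 and the junction molecule Jam2, and the ferritin gene Ftl1 fell. Of 31 other endothelial genes 3 rose, Ramp2, S1pr1 and Sox7.

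The makeup of the signal also differed with age. At P5 Cldn5 and Car4 had the median shares 38.6% and 25.7% of the summed FPKM of the 10 genes over 6 libraries. At 12 weeks Ly6c1 and Ly6a had median shares of 26.5% and 19.6% over 9 libraries, against 3.85% and 0% at P5. Cldn5 then had a median share of 17.9%. Shares of 1 sum depend on each other and were not tested.

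**Figure D3:**
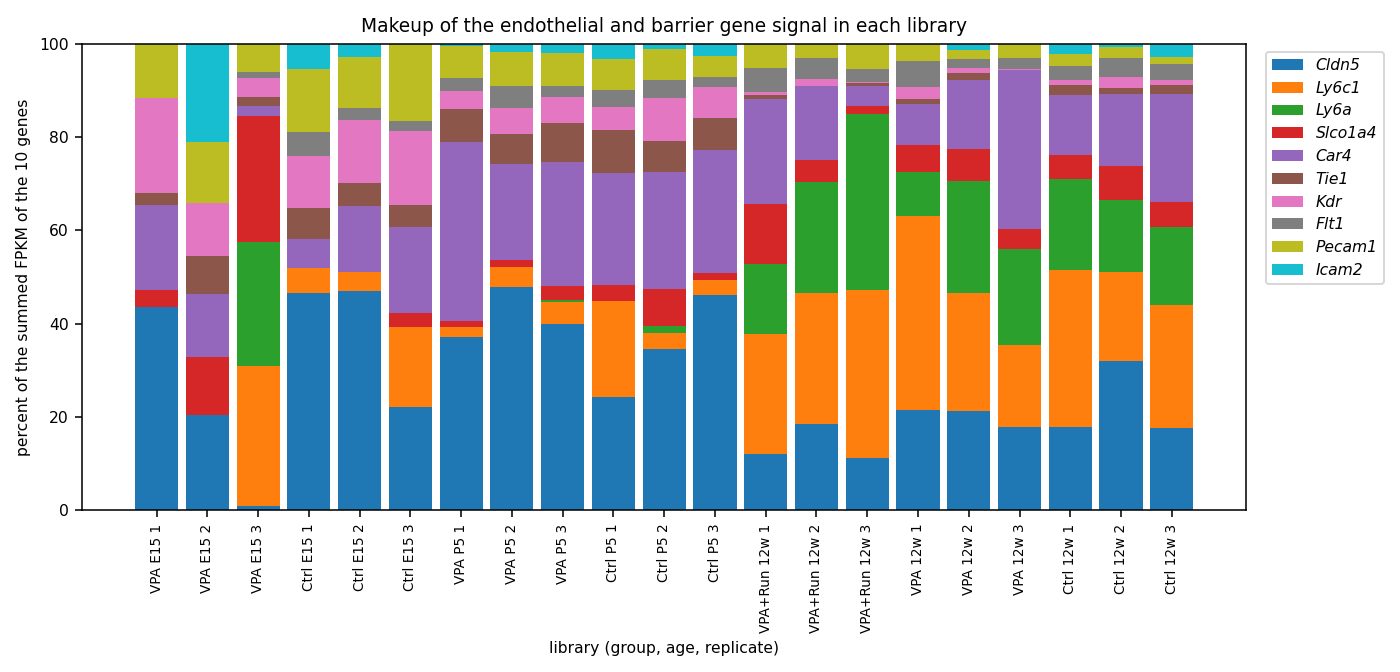
Share of each gene in the summed FPKM of the 10 genes, in percent, for each library (Ctrl, control), with VPA libraries left of control libraries at each age. Cldn5 and Car4 fill most of each P5 bar except that of control replicate 1 (24.4% and 24.1%), and Ly6c1 and Ly6a appear as large parts at 12 weeks and in VPA E15 replicate 3.

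At E15, 1 day after the last dose, none of the 10 genes reached the minimum level for testing of VPA against control forebrain cells. In that comparison 0.0405% of 12345 genes tested were called, and 0.0163% without the minimum. Without the minimum, Cldn5 had the smallest p, with 0.493, 0.218 and 0.0848 FPKM in VPA libraries, against 1.38, 0.724 and 0.357 FPKM in control libraries (log2 fold change -0.50, SE 0.23, limma adjusted p = 0.589), and the groups overlap. The labels state no pairing. If E15 libraries of the same replicate number are treated as pairs, Cldn5 was lower in VPA within each of the 3 pairs. With the replicate number as a block and no minimum, an alternative chosen after seeing the data that called 1 of 18453 genes, the SE of the Cldn5 difference was 0.09, its unadjusted p 0.00653 and its limma adjusted p 0.659, so it was not called either. Ly6c1, Ly6a and Slco1a4 were at 2.63, 2.32 and 2.36 FPKM in VPA replicate 3, the library with choroid plexus transcripts, and at 0.131 FPKM or less in the other VPA libraries. The part of those transcripts in these values was not tested. That library had the lowest Cldn5 of all 21, and its other endothelial genes summed to 33.4 FPKM, against 28.0 and 28.7 FPKM in the other VPA libraries and 30.5 to 33.9 FPKM in control libraries. Without it Ly6c1 was at 0 and 0 FPKM in VPA libraries, against 0.157, 0.0617 and 0.279 FPKM in control libraries, and its difference had the opposite sign (-0.22, adjusted p = 0.499, where all libraries gave 0.40).

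At P5 the VPA libraries lay above the control libraries without overlap for 6 of the 10 genes, and none was called. Cldn5 was at 5.08, 6.63 and 4.68 FPKM in VPA libraries, against 1.34, 1.79 and 3.50 FPKM in control libraries, and the groups do not overlap. The means were 5.46 ± 1.03 FPKM in VPA and 2.21 ± 1.14 FPKM in control (SD, n = 3 each), and the log2 fold change was 1.06 (SE 0.24, 95% interval 0.48 to 1.63, limma adjusted p = 0.0710). Car4 was at 5.25, 2.86 and 3.13 FPKM in VPA libraries, against 1.33, 1.30 and 1.98 FPKM in control libraries, again with no overlap (0.88, SE 0.20, adjusted p = 0.0713). Cldn5 and Car4 were the only 2 of the 10 that reached the minimum level at P5, and neither was called, where 2.24% of 13328 genes were called in either direction. Both were called with array quality weights (adjusted p = 0.0296 for Cldn5 and 0.0358 for Car4), where 1213 of 13328 genes were called. Cldn5 was also called without control replicate 3 (adjusted p = 0.0228), where 500 of 13212 genes were called.

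The other 8 genes were at 1.12 FPKM or less in each P5 library and are described from the fit without a minimum. Pecam1 was at 0.937, 1.02 and 0.811 FPKM in VPA libraries, against 0.363, 0.343 and 0.333 FPKM in control libraries (0.51, SE 0.06, adjusted p = 0.0513). Tie1 was at 0.971, 0.886 and 0.971 FPKM in VPA libraries, against 0.501, 0.342 and 0.521 FPKM in control libraries (0.42, SE 0.07, adjusted p = 0.0759). Both receptors of VEGF also had every VPA library above every control library, with Flt1 at 0.276 to 0.649 FPKM in VPA and 0.167 to 0.204 FPKM in control, and Kdr at 0.527 to 0.752 FPKM in VPA and 0.269 to 0.508 FPKM in control. In this fit 0.187% of 19294 genes were called, and the 6 genes without overlap compare with 12% of all genes that lay higher in VPA in this way. Ly6c1, Ly6a, Slco1a4 and Icam2 overlapped, and their differences were between -0.01 and 0.04 on the log2 scale.

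Genes of the vessel wall and of other non-neural cells differed in the same libraries. Of 14 pericyte and mural genes tested 4 rose in VPA libraries and all 14 had a log2 fold change above 0. Of the 4, Vtn (1.33, SE 0.15, adjusted p = 0.0145), Mcam (1.05) and the PDGF receptor Pdgfrb (1.0) had the smallest p. The pericyte sum was 208 to 369 FPKM in VPA libraries and 142 to 160.1 FPKM in control libraries. These calls depend on single libraries: 0 pericyte genes were called without VPA replicate 2, 8 without VPA replicate 3 and 1 with a replicate block, and without control replicate 1 or control replicate 2 no gene of any list was called. Of 10 fibroblast and meningeal genes tested 4 rose, among them Igf2 (1.14), Col1a2 (0.92) and Foxc1 (0.84), and the list's sum was 107 to 128 FPKM in VPA libraries and 61.3 to 78.0 FPKM in control libraries. Of 12 microglia and macrophage genes tested 2 rose, Pf4 (1.17) and Laptm5 (0.72), with sums of 53.3 to 83.5 FPKM in VPA and 37.6 to 45.9 FPKM in control. Of the 6 erythroid genes tested Hba-a1 and Alas2 fell, and the erythroid sum was 152 to 689 FPKM in VPA and 1309 to 1736 FPKM in control. The neural progenitor genes Sox9 (-0.69), Hes1 (-0.59) and Sox2 (-0.36) fell.

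Set against the pericyte sum, the 10 genes did not separate the P5 groups. Their sum was 11.7 to 13.8 FPKM in VPA libraries and 5.17 to 7.57 FPKM in control libraries, without overlap. Per 100 FPKM of pericyte genes it was 3.70 to 5.62 in VPA libraries and 3.44 to 5.05 in control libraries, and these ranges overlap. Of 14 other endothelial genes tested none was called, 12 had a log2 fold change above 0 and the median was 0.47, against -0.0040 over all genes tested. In the barrier list Slc7a1, a cationic amino acid carrier (0.41, adjusted p = 0.0299), and Slc22a8 (1.05, adjusted p = 0.0341) rose. The semaphorin receptor Plxnd1 (0.72, adjusted p = 0.0195) and the Wnt receptor Fzd6 (0.49, adjusted p = 0.0418) also rose. The part of the other cell types in the endothelial values was not tested.

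At 12 weeks all 10 genes had a lower mean in VPA than in control libraries, as 50.7% of genes were below 0 on the log2 scale, and none was called. This direction was opposite to that at P5 for the 6 genes that lay higher in VPA there without overlap. The means of Ly6c1, Ly6a and Slco1a4 were slightly lower in VPA at P5 too. Cldn5 was at 62.0, 59.1 and 29.6 FPKM in VPA libraries, against 68.1, 205 and 97.4 FPKM in control libraries. The groups do not overlap, although VPA replicate 1 and control replicate 1 are close. The log2 fold change was -1.20 (SE 0.44, 95% interval -2.17 to -0.22, limma adjusted p = 0.676).

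Ly6a was at 27.5, 66.9 and 34.2 FPKM in VPA libraries, against 74.5, 97.5 and 91.7 FPKM in control libraries (-1.11, SE 0.35, adjusted p = 0.578). Ly6c1 was at 120.0, 71.1 and 29.0 FPKM in VPA libraries, against 128, 121 and 146 FPKM in control libraries (-1.05, SE 0.40, adjusted p = 0.694). Neither of the Ly6 genes overlaps between the groups, and the VPA libraries spread more widely than the control libraries. Ly6c2, the near copy, was at 9.28 to 39.9 FPKM over the 9 libraries.

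Slco1a4 was at 16.8, 19.0 and 7.06 FPKM in VPA libraries, against 19.5, 47.5 and 30.3 FPKM in control libraries (-1.15, SE 0.64, adjusted p = 0.818). Tie1 was at 3.21, 4.38 and 0 FPKM in VPA libraries, against 8.44, 8.43 and 11.4 FPKM in control libraries (-1.87, SE 0.73, adjusted p = 0.711). Icam2 was listed at 0 in VPA replicates 1 and 3 and was at 3.49 FPKM in replicate 2, against 8.18, 4.86 and 15.5 FPKM in control libraries (-2.54, SE 0.67, adjusted p = 0.557). None of these 3 genes overlaps between the groups, and the zeros of Tie1 and Icam2 may be failed estimates. Icam2 reached 1 FPKM in 4 of the 9 libraries and passed the minimum only through the control libraries, where it was high. Without the minimum its difference was also -2.54 (limma adjusted p = 0.607).

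Car4, Kdr, Flt1 and Pecam1 overlapped between VPA and control at 12 weeks. Car4 was at 25.2, 41.1 and 56.4 FPKM in VPA libraries, against 48.9, 98.2 and 127 FPKM in control libraries. Flt1 was at 15.8, 5.70 and 3.86 FPKM in VPA libraries, against 10.7, 25.4 and 19.0 FPKM in control libraries, and Pecam1 at 10.8, 5.50 and 4.91 FPKM in VPA, against 10.2, 14.8 and 8.23 FPKM in control. For Flt1 and Pecam1 VPA replicate 1 lay within the control range, and for Kdr it did too, at 7.59 FPKM. The smallest difference of the 10 was that of Pecam1, -0.62 (SE 0.38, adjusted p = 0.828).

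Over the 10 genes the median log2 fold change was -1.13, against -0.01 over all genes tested, and 6 genes lay lower in VPA without overlap, where 7.63% of 13847 genes did. Icam2, among these 6, passed the minimum only through the control libraries. The members come from the same libraries and vary together, so they are not separate evidence. No gene of the 13847 was called at 12 weeks (limma), which leaves the background at 0%. VPA replicate 3 had the lowest of the 9 values for 7 of the genes, for Tie1 and Icam2 as a tie at 0 with other libraries. Without it the median of the 10 was -0.83 and all 10 differences stayed below 0. Without control replicate 1, the library rich in microglia genes, the median was -1.47 and all 10 differences again lay below 0.

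Pericyte genes went the same way at 12 weeks. Of 16 tested 15 had a log2 fold change below 0 in VPA libraries, with a median of -0.65 and no call, and the list's sum was 903 to 1271 FPKM in VPA libraries and 1222 to 2596 FPKM in control libraries. Per 100 FPKM of pericyte genes the 10 genes summed to 13.2, 21.9 and 32.0 FPKM in VPA libraries in rising order, against 21.3, 29.8 and 31.1 FPKM in control libraries, and the ranges overlap. Of 30 other endothelial genes tested 23 were below 0, with a median of -0.71 and no call. Microglia and macrophage genes summed to 118 to 131 FPKM in VPA libraries and 66.8 to 456 FPKM in control libraries. Of 11 fibroblast and meningeal genes 10 were below 0 (median -0.80), although their sum was higher, at 317 to 458 FPKM in VPA and 210.4 to 284 FPKM in control, with Pdgfra, a growth factor receptor that oligodendrocyte precursors also express, at 251 to 424 FPKM in VPA and 124 to 188 FPKM in control. All 3 erythroid genes tested were below 0 (median -3.20), with sums of 0 to 153 FPKM in VPA and 0 to 1436 FPKM in control, and 9 of 13 neural progenitor genes were below 0 (median -0.19), with sums of 990.0 to 1170 FPKM in VPA and 1025 to 1891 FPKM in control. No gene of these lists was called. The part of these other cell types in the endothelial values was not tested.

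Not every vessel-related gene was lower. Named after their values were seen, Vegfa, the ligand of Kdr and Flt1, was at 110.9, 167 and 194 FPKM in VPA libraries, against 84.8, 64.3 and 53.8 FPKM in control libraries (log2 fold change 1.20, SE 0.27, limma adjusted p = 0.450). Mfsd2a, a lipid transporter needed for a tight brain endothelium, was at 82.8, 88.6 and 64.7 FPKM in VPA libraries, against 50.2, 25.9 and 39.1 FPKM in control libraries (1.05, SE 0.39, adjusted p = 0.690). Neither gene overlaps between the groups, and neither was called. Mfsd2a belongs to the barrier and transport list, which is not particular to endothelium in these cells. The glucose carrier Slc2a1 was at 75.6, 57.1 and 39.5 FPKM in VPA libraries, against 87.4, 88.7 and 78.1 FPKM in control libraries (-0.60, SE 0.36, adjusted p = 0.828).

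**Figure D4:**
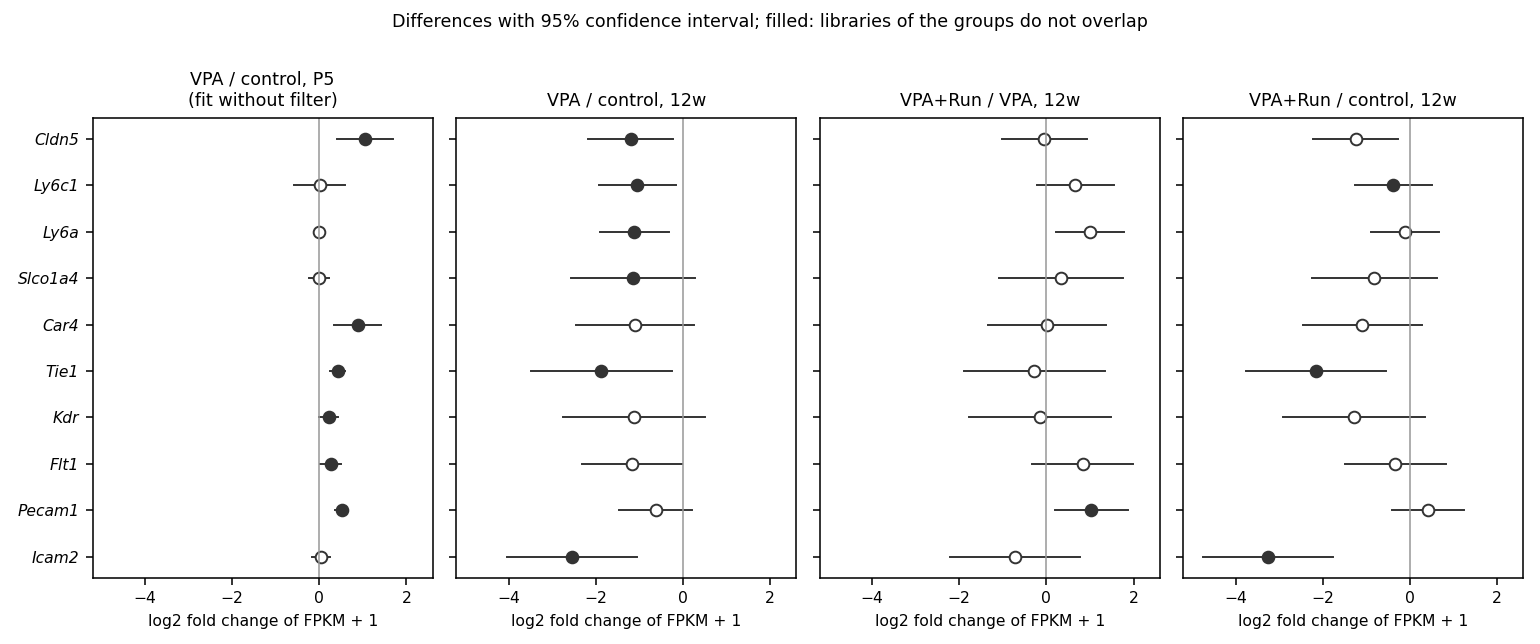
Log2 fold change of FPKM + 1 with its 95% confidence interval for each of the 10 genes in 4 comparisons, from limma, with a filled point where the libraries of both groups do not overlap. VPA against control lies at or above 0 for most genes at P5, 1.06 for Cldn5, and below 0 for all 10 at 12 weeks, -1.20 for Cldn5. The 3 comparisons at 12 weeks share libraries.

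Mice exposed to VPA that ran voluntarily were compared with VPA mice that did not, and no endothelial gene was called (limma, 0% of 13847 genes called). Pecam1 was at 17.1, 11.8 and 15.8 FPKM in VPA+Run libraries, against 10.8, 5.50 and 4.91 FPKM in VPA libraries, without overlap (1.03, SE 0.38, adjusted p = 0.340). It was the only one of the 10 that did not overlap, where 6.98% of genes lay higher in VPA+Run without overlap. Ly6a was at 50.5, 94.2 and 110.4 FPKM in VPA+Run libraries, against 27.5, 66.9 and 34.2 FPKM in VPA libraries, and overlapped (1.0, SE 0.35, adjusted p = 0.331).

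The other genes spread within the running group. Car4 was at 75.6, 63.0 and 12.4 FPKM in VPA+Run libraries, and Slco1a4 at 43.2, 19.2 and 5.37 FPKM, in each case lowest in replicate 3, the library with the fewest genes. Cldn5 was at 40.6, 73.6 and 32.9 FPKM in VPA+Run libraries, against 62.0, 59.1 and 29.6 FPKM in VPA libraries (-0.05, SE 0.44). Icam2 was listed at 0 in all 3 VPA+Run libraries. In all, 6 of the 10 differences were above 0 and 4 below, where 54.2% of genes were below and 45.8% above, with a median of 0.17 against -0.05 over all genes tested. The direction rests on single libraries. Without VPA+Run replicate 3 the median was 0.70 and 8 of 10 lay above 0. The median was -0.01 without VPA+Run replicate 1 and 0.02 without VPA replicate 3, each with 5 of 10 above 0. Marker lists of other cells also separated these groups. The neural progenitor sum was 1550 to 2000 FPKM in VPA+Run and 990.0 to 1170 FPKM in VPA, the microglia and macrophage sum 31.8 to 101 FPKM in VPA+Run and 118 to 131 FPKM in VPA, and the fibroblast and meningeal sum 189 to 230.2 FPKM in VPA+Run and 317 to 458 FPKM in VPA, with no gene of these lists called. The pericyte sums overlapped, at 722 to 1636 FPKM in VPA+Run and 903 to 1271 FPKM in VPA. Their part in the endothelial values was not tested.

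Against control, the VPA+Run libraries were lower for 9 of the 10 genes, where 55.9% of genes were below 0. The exception was Pecam1 (0.41, SE 0.38), and none of the 10 was called (limma, 0% of 13847 genes called). Ly6c1 was at 86.0, 110.5 and 106 FPKM in VPA+Run libraries, against 128, 121 and 146 FPKM in control libraries, Tie1 at 3.29, 0 and 1.94 FPKM, against 8.44, 8.43 and 11.4 FPKM, and Icam2 at 0 throughout, against 8.18, 4.86 and 15.5 FPKM. These 3 genes did not overlap, where 7.24% of genes lay lower without overlap. Icam2 passed the minimum in this fit only through the control libraries. Cldn5 differed by -1.24 (SE 0.44, adjusted p = 0.614) and overlapped only through control replicate 1 and VPA+Run replicate 2. The median of the 10 was -0.95, and -0.38 without VPA+Run replicate 3. This comparison shares its control libraries with VPA against control and its running libraries with VPA+Run against VPA, so the 3 are not independent. Of the 16 pericyte genes 15 lay below 0 here too, with no call.

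The VPA difference itself was compared between ages. For all 10 genes the difference at 12 weeks minus that at P5 was below 0, as for 49.9% of genes, with a median of -1.38 against 0.0007 over all genes tested. None was called (limma with an interaction term, 0.389% of 14662 genes called). The value was -2.25 for Cldn5 (SE 0.56, adjusted p = 0.106), -2.58 for Icam2 (SE 0.63, adjusted p = 0.102) and -1.99 for Car4 (SE 0.70, adjusted p = 0.281). Icam2 was called without VPA 12-week replicate 2 (118 of 14583 genes called) and Cldn5 without control 12-week replicate 1 (224 of 14586). VPA replicate 2 is the only 12-week VPA library with Icam2 above 0. Without it the VPA values left are zeros, which may be failed estimates. Icam2 was at 0.245 FPKM or less in every younger library, so its values in these tests largely repeat its 12-week difference of -2.54. Cldn5 and Car4 were called without the 3 libraries that stand apart (639 of 14494 genes called). Of the pericyte genes Vtn (-2.31, adjusted p = 0.0305) and Abcc9 (-1.99, adjusted p = 0.0306) fell in this test. Without single libraries the pericyte calls numbered 0 to 5, and 0 without any 1 of the P5 control libraries. Between 12 weeks and E15 no gene of the 10 was called (0.0818% of genes called), with Icam2 at -2.55 (SE 0.63, adjusted p = 0.152). Without VPA 12-week replicate 2, which again leaves only zeros in the 12-week VPA group, Icam2 was called, as were 42 of 14583 genes. Between P5 and E15 none was called either (0.0955% of genes called), and Cldn5 had the smallest unadjusted p, 0.0131, at 1.56 (SE 0.56).

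In the order of group means, control at 12 weeks was highest for 9 of the 10 genes, and VPA+Run for Pecam1. Cldn5 averaged 123 FPKM in 12-week controls, 50.2 in 12-week VPA, 49.0 in VPA+Run, 5.46 in VPA P5, 2.21 in control P5, 0.822 in control E15 and 0.265 in VPA E15. Neighbours in this order that overlapped were VPA+Run and VPA at 12 weeks, control P5 and control E15, and the 2 groups at E15. For Car4 the order was the same but for VPA+Run standing above VPA at 12 weeks, and all 3 groups at 12 weeks overlapped with their neighbours.

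Within an age the 10 genes tended to vary together. After the mean of each age was removed, the correlation of a gene's log2 level with the mean of the other 9 over the 21 libraries was highest for Kdr (Pearson's r = 0.73) and Flt1 (0.73) and lowest for Pecam1 (0.33) and Ly6a (0.40). These are descriptions over libraries that include the groups compared above, mainly the 9 at 12 weeks, where the values spread most. Of 13843 genes with a mean of 1 FPKM or more, the 8 most like the mean of the 10 were Casq2 (0.92), Gss, Avpi1, F11r, Anxa5, Adgra3, C130074G19Rik and Col1a2 (0.87). The 3 most like Cldn5 were Col4a1, a basement membrane collagen chain (0.83), Syt5 (0.82) and Dctn1 (0.82).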

How the data were processed

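RNA of sorted Nestin-EGFP cells was sequenced in 21 libraries. Per the submitters' processing notes, the authors used TopHat, Bowtie2, Cufflinks and Cuffdiff with mm10, whose versions the sources used here do not give. The deposited values are FPKM per gene symbol, as the 12-week headers state. For E15 and P5 the unit was inferred from the same symbols and similar column sums. Read counts were not used here, so depth is unknown, and no interval for counting error is given. Strand was not stated.

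From these values log2(FPKM + 1) was computed, which understates changes of low genes. Linear models were fitted over all genes that reached 1 FPKM in 3 or more of the libraries fitted (limma 3.58.1 in R 4.3.3, lmFit and eBayes with a trend). Benjamini-Hochberg adjusted p-values cover every gene tested, and 0.05 was the threshold for a call. The E15 and P5 fits held 6 libraries each, the 12-week fit 9, and the age and interaction fits all 21. The procedure was tested on simulated data. No 2 libraries were identical.

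The members and lists were chosen with earlier results of these data known. All 10 members are named. From each other list the 3 of smallest p per direction past the threshold are named, and exceptions are marked. The lists hold other endothelial genes, barrier and transport genes, VEGF, angiopoietin and Notch genes, Wnt barrier genes, pericyte, fibroblast, microglia, erythroid, choroid plexus, platelet and lymphocyte, and neural progenitor genes. Calls of single microglia genes in 12-week against P5 controls are not reported here.

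Replicate numbers are in the labels. They do not state a pairing. At E15 the deviations of same-numbered VPA and control libraries correlated weakly, at 0.126, 0.106 and 0.161, and differently numbered libraries were not compared. Treating the E15 numbers as pairs is therefore an assumption. At P5 (-0.04 to 0.06) and 12 weeks (-0.05 to 0.03) the numbers were not treated as pairs. The main fits left the pairing out, and it entered only in the replicate block. Alternatives were a pseudocount of 0.1, no minimum, a minimum of 5 FPKM, median-of-ratios scaling, array quality weights, a replicate block (at E15 also without the minimum, added after seeing the data), another set of libraries in the fit and leaving out each library.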

Additional observations from a re-analysis of the deposited data

How the results depend on the processing

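The rise of all 10 genes in 12-week against P5 controls was called in every alternative that could test them, and all differences of VPA against control at 12 weeks stayed below 0. At P5 the number of VPA calls among the 10 was 2 with array quality weights and 0 to 1 when single libraries were left out. For control P5 against E15 it was 1 with a pseudocount of 0.1, 3 with array quality weights, 2 with only these groups in the fit and 1 without the libraries that stand apart (VPA E15 replicate 3, control 12-week replicate 1 and VPA+Run replicate 3, chosen after seeing the data). For the VPA difference at P5 minus E15 it was 3 with array quality weights, and at 12 weeks minus P5 it was 2 without the libraries that stand apart. Leaving out single libraries gave 0 to 1 for 12 weeks minus P5 and for 12 weeks minus E15. A replicate block changed no call of the 10 genes. Over all genes the 298 calls at P5 were 36 without a minimum, 1213 with array quality weights, 70 with the replicate block, 15 in the fit of all 21 libraries and 18 to 543 without single libraries. The 5 calls at E15 were 0 to 11 without single libraries and 347 with array quality weights. The 0 calls of VPA against control at 12 weeks were 11 with array quality weights. The 0 calls of VPA+Run against VPA were up to 37, and those against control up to 12, without single libraries. The 1848 calls of 12-week against P5 controls were 3286 without the libraries that stand apart, and the 3038 of P5 against E15 were 10238 with array quality weights and 8033 with only these groups. For the VPA difference, the 57 calls at 12 weeks minus P5 were 10 to 224 without single libraries and 639 without those that stand apart. The 12 at 12 weeks minus E15 were 209 without those libraries, and the 14 at P5 minus E15 were 2494 with array quality weights.

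Some differences changed sign. In VPA+Run against VPA, leaving out single libraries gave -0.38 to 0.19 for Cldn5, -0.32 to 1.08 for Slco1a4, -0.44 to 0.81 for Car4, -1.03 to 0.33 for Tie1 and -0.76 to 0.45 for Kdr, and leaving out the libraries that stand apart gave 0.19 for Cldn5 and 0.28 for Kdr. In VPA+Run against control, leaving out single libraries gave -0.34 to 0.22 for Ly6a and -0.66 to 0.027 for Flt1. For P5 minus E15 the same gave -0.70 to 0.23 for Ly6c1 and -0.029 to 0.13 for Icam2, array quality weights gave 0.10 and -0.0077, and without the libraries that stand apart the values were 0.23 and -0.015. With a pseudocount of 0.1, Cldn5 was at 0.12 for 12 weeks minus E15. The cause was not tested.

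Values below 1 FPKM are near the limit of detection and their depth is unknown, and at 12 weeks genes listed at 0 can be failed estimates, which limits Tie1 and Icam2 most.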
